A study of Mus musculus with 6 samples.

Results

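Ligands, inhibitors and receptors of interleukin-1 and interleukin-18, with the interleukin-33 receptor Il1rl1, were followed through 10 of the 23557 genes measured. The samples were CT26 tumors of mice given H89 or NaCl. The genes were chosen by name. They comprised 3 ligands (Il1a, Il1b, Il18), 3 inhibitors (Il1rn, Il1r2, Il18bp) and 4 receptor chains (Il1r1, Il1rl1, Il18r1, Il18rap). Il18r1 had already been named by the study from these same tumors, so its direction below is not independent evidence. CT26 cells come from a colon carcinoma of a BALB/c mouse, and H89 is an inhibitor of protein kinase A that also acts on other kinases. BALB/c mice received 500000 CT26 cells under the skin, followed 2 times a week by intraperitoneal H89 at 10 mg/kg, or by NaCl alone in the control group. On day 14 after cell injection, 3 tumors per group were taken and the RNA of each whole tumor, with its tumor cells and host cells, was sequenced. The 6 libraries held between 27067349 and 31958793 estimated reads. Levels are given below as counts per 1000000 of a tumor's total (CPM), and a single count was worth at most 0.0369 CPM.

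Interleukin-1 alpha and beta act on the receptor Il1r1 paired with an accessory chain, and the signal passes through the adaptor MyD88 and IRAK kinases to NF-kappa B. Interleukin-18 acts in the same way on Il18r1 paired with Il18rap, mainly on T and NK cells, where it raises interferon-gamma production together with interleukin-12. Interleukin-1 beta and interleukin-18 are made as inactive precursors that caspase-1 cleaves, and both arms are held in check by soluble or decoy inhibitors.

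Of the 10 genes, the IL-18 receptor chain Il18r1 was the only one with groups that did not overlap, all 3 H89-treated tumors lying above the NaCl range. In the other 9 genes, the CPM of the groups overlapped. Il18bp had the next largest difference upward and Il1rn the largest downward, neither beyond the spread between tumors. With edgeR's quasi-likelihood test and Benjamini-Hochberg adjustment over 13118 genes, none of the 10 had an adjusted p under 0.05, against 1.59% of all genes tested. At an unadjusted edgeR p under 0.05 there was 1 of 10, against 25.0% of all genes (13.1% higher and 11.9% lower in H89). DESeq2 gave 1 of the 10 an adjusted p under 0.05, again Il18r1, among 1406 such genes in the table, and limma on log2(CPM + 0.5) gave 0, among 261. Groups that did not overlap were found for 30.5% of all genes tested, 20.5% with H89 above and 10.0% with H89 below NaCl. After scaling by TMM, these shares were 15.2% and 15.4%, and Il18r1 still was the only one of the 10. Their median log2 fold change was -0.11, against 0.00 for all genes tested, with 5 above and 5 below 0. All 10 passed the filter on low counts, although 4 of them (Il1a, Il18, Il1r2, Il18r1) had a mean under 5 CPM.

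**Figure D1:**
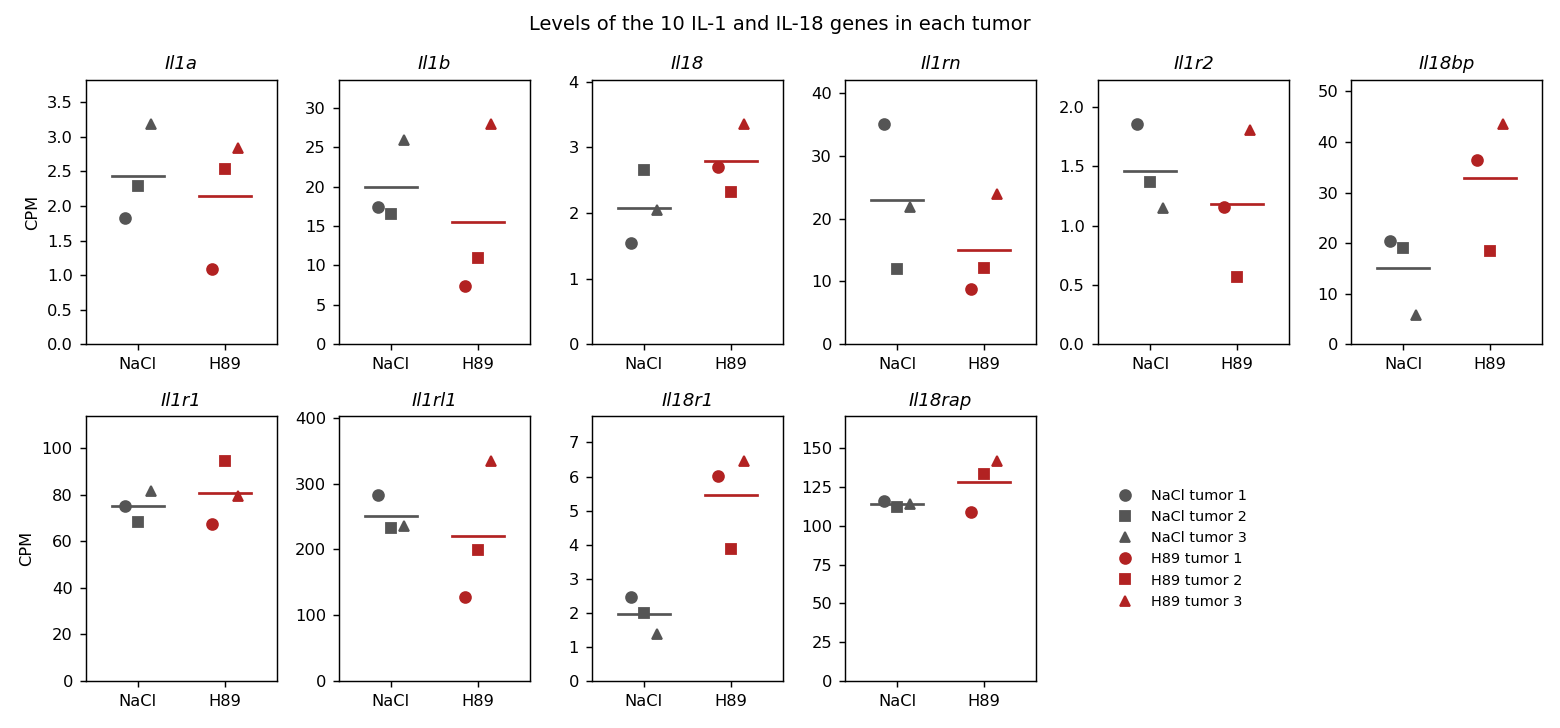
CPM (vertical axes, starting at 0) of each of the 10 genes in the 3 NaCl tumors (grey) and 3 H89-treated tumors (red), with a line at each group mean. The groups are apart for Il18r1 and overlap for the other 9 genes.

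To compare levels between genes, CPM was divided by the mean length of a gene's protein-coding transcripts in kilobases. On this scale Il1rl1 led with a mean of 80.5 CPM per kb over the 6 tumors (range 43.6 to 115), above 90.6% of the genes tested with a known length. Il18rap came next at 24.8 CPM per kb, and the lowest Il1rl1 tumor lay above the highest Il18rap tumor. Then followed Il18bp (15.9), Il1r1 (14.6), Il1rn (13.8) and Il1b (13.1 CPM per kb), whose ranges overlapped with one another, and the median of the genes tested was 11.8 CPM per kb. Lower means were found for Il18 (3.1), Il1r2 (1.55), Il18r1 (1.47) and Il1a (1.16 CPM per kb). Il1b lay above Il18 in all tumors, whereas Il18bp in NaCl tumor 3 (3.8 CPM per kb) was inside the Il18 range, and among the last 4 each gene's range overlapped with that of the next. The most abundant transcript of the group thus belonged to the receptor for interleukin-33. Il18rap was second only by its mean, since Il18bp in H89-treated tumor 1 (24.3 against 22.3 CPM per kb) and Il1rn in NaCl tumor 1 (25.5 against 23.8) exceeded it. The 4 genes at the bottom stood low in the whole table, with at most 24.5% of the genes tested below them.

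Among the ligands, Il1b, the secreted inflammatory form of interleukin-1, was measured at 17.4, 16.6 and 25.9 CPM in NaCl tumors 1 to 3 and at 7.43, 11 and 28 CPM in H89-treated tumors 1 to 3. In CPM divided by the total, its 2 lowest values and its highest value all came from the H89 group, which covered the NaCl range. The highest values, 28 CPM in H89-treated tumor 3 and 25.9 CPM in NaCl tumor 3, can change order under TMM. Their TMM factors were 1.063 and 0.981. The log2 fold change was -0.46 (standard error 0.43, exact permutation p = 0.5). Its size rested on single tumors. It was -1.17 without H89-treated tumor 3 (edgeR, Benjamini-Hochberg adjusted p = 0.0912) and -0.15 without H89-treated tumor 1. Il1a, the form that is active without cleavage, was measured at 1.82, 2.29 and 3.19 CPM in NaCl and at 1.09, 2.53 and 2.84 CPM in H89-treated tumors. H89-treated tumor 1 was again the lowest of the 6, and the other 5 were mixed. Its log2 fold change was -0.25 (standard error 0.36), and turned to 0.05 without H89-treated tumor 1 and to -0.47 without H89-treated tumor 3. Il18 was measured at 1.55, 2.66 and 2.04 CPM in NaCl and at 2.7, 2.32 and 3.36 CPM in H89-treated tumors. NaCl tumor 2 stood among the H89 values, so the groups overlapped, and the log2 fold change was 0.35 (standard error 0.26, exact permutation p = 0.2). With single tumors left out it lay between 0.19 (NaCl tumor 1) and 0.55 (NaCl tumor 2), and it was 0.09 after quantile normalization with limma. At these levels Il1a and Il18 rested on 31 to 104 counts per tumor. Exons of Il1b and Il1a overlap with the genes Il1bos and Gm14023 on the opposite strand in GENCODE M21. The counts of Il1b and Il1a were within 0.01 of a whole number in all 6 tumors, and the strand used in counting is not given in the sources used here.

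Of the inhibitors, Il1rn, the antagonist that occupies the IL-1 receptor without a signal, was measured at 35.1, 11.9 and 21.8 CPM in NaCl and at 8.82, 12.1 and 24 CPM in H89-treated tumors. NaCl tumor 1 was the highest and H89-treated tumor 1 the lowest, with a span of 3.98-fold, and the remaining 4 tumors interleaved. The log2 fold change was -0.71 (standard error 0.44, exact permutation p = 0.5). Leaving out NaCl tumor 1 brought it to -0.25, and leaving out H89-treated tumor 3 brought it to -1.19. The unadjusted edgeR p was under 0.05 in the latter case and without NaCl tumor 2. NaCl tumor 1 also had the highest summed level of the 7 mast cell markers, at 206 CPM against 80.2 and 77.4 in NaCl tumors 2 and 3 and 81, 85.6 and 141 in H89-treated tumors 1 to 3. Tpsb2, a mast cell tryptase, made up 38.1% of that sum, none of the 7 was at 0 in all tumors, and the part of mast cells in the Il1rn values was not tested. Il1r2, a decoy receptor that binds interleukin-1 without signaling, was scarce, at 1.86, 1.37 and 1.15 CPM in NaCl and 1.16, 0.563 and 1.81 CPM in H89-treated tumors. Its values rested on 18 to 54 counts in 5 of the tumors and 56 in H89-treated tumor 3, both groups reached up to about the same level, and the log2 fold change was -0.39 (standard error 0.42). It was -0.05 with H89-treated tumor 2 left out and -0.81 with H89-treated tumor 3 left out.

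Il18bp, a secreted protein that binds interleukin-18 and a known target of interferon-gamma, was measured at 20.4, 19 and 5.7 CPM in NaCl and at 36.4, 18.5 and 43.6 CPM in H89-treated tumors. H89-treated tumors 1 and 3 were above every NaCl tumor, H89-treated tumor 2 was level with NaCl tumors 1 and 2, and NaCl tumor 3 was far below the rest. The span from the lowest to the highest tumor, 7.64-fold, was the widest of the 10 genes. The group means were 15 ± 8.09 and 32.8 ± 12.9 CPM (SD, n = 3 tumors each). The log2 fold change was 1.05 (standard error 0.47, unadjusted edgeR p = 0.056, Benjamini-Hochberg adjusted p = 0.211), with an exact two-sided permutation p = 0.3. An exact test of 3 against 3 tumors cannot go below 0.1. Without NaCl tumor 3 the log2 fold change was 0.66, and the unadjusted edgeR p was under 0.05 without NaCl tumor 1 or without H89-treated tumor 2. Exons of Il18bp overlap with the end of Numa1 on the opposite strand. Its estimated counts were within 0.01 of a whole number in all 6 tumors, and whether reads of Numa1 were counted for it is not given in the sources used here.

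The 10 interferon-gamma response genes listed, with Il18bp among them, all had a log2 fold change above 0, and 5 had an unadjusted edgeR p under 0.05 (Irf1 and Ciita among them), against 13.1% of all genes higher in H89, and none with an adjusted p under 0.05. Their median log2 fold change was 1.02, against 0.00 for all genes tested. Gbp2, the most abundant of the list, was at 253, 180 and 41.3 CPM in NaCl and at 405, 169 and 526 CPM in H89-treated tumors. As for Il18bp, NaCl tumor 3 was lowest and H89-treated tumor 2 fell inside the NaCl range. The log2 fold change was 0.92 (standard error 0.28) for Irf1, a transcription factor induced by interferon, and 1.87 (standard error 0.59) for Ciita, the regulator of MHC class II genes, both with groups that did not overlap. The groups overlapped in the other 8, and H89 was above NaCl without overlap in 20.5% of all genes.

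**Figure D2:**
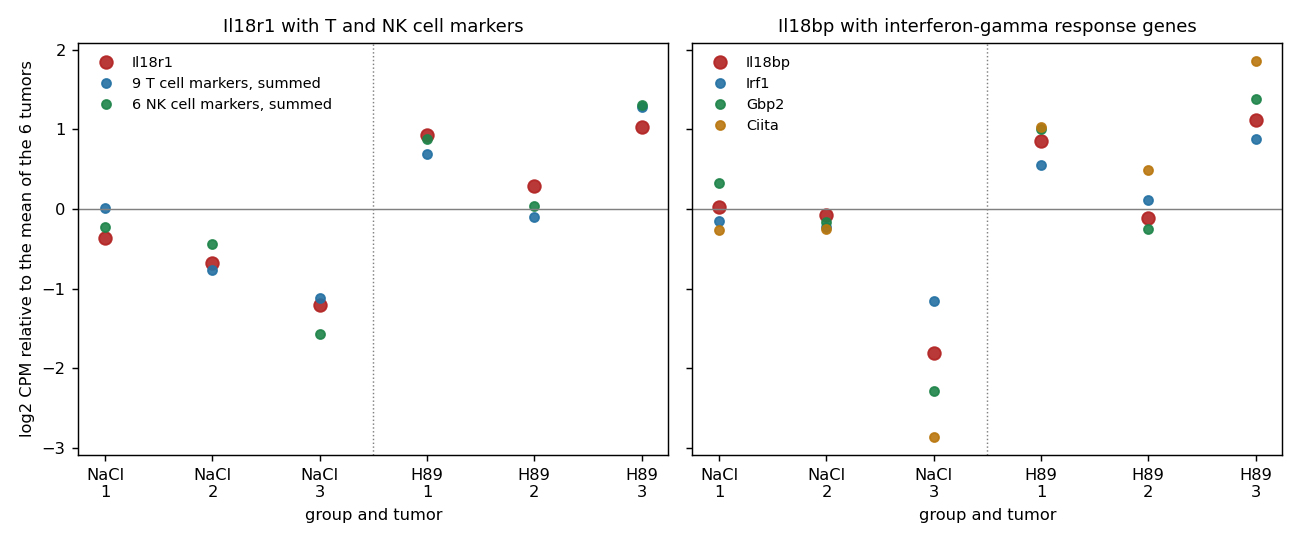
log2 CPM relative to the mean of the 6 tumors (vertical axis) in each NaCl and H89-treated tumor (horizontal axis), for Il18r1 with the summed T and NK cell markers (left) and for Il18bp with 3 interferon-gamma response genes (right). NaCl tumor 3 is lowest and H89-treated tumor 3 highest in both panels, and H89-treated tumor 2 lies nearest to the NaCl tumors.

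Il18r1, the chain that binds interleukin-18, was measured at 2.47, 1.99 and 1.38 CPM in NaCl tumors 1 to 3 and at 6.03, 3.88 and 6.47 CPM in H89-treated tumors 1 to 3. Every H89-treated tumor was above every NaCl tumor, with H89-treated tumor 2 nearest to the controls. The values came from 39 to 72 counts in NaCl and 124 to 200 counts in H89-treated tumors. Counting error alone gave an exact 95% Poisson interval of 1.94 to 3.12 CPM in NaCl tumor 1, the highest control, and of 3.23 to 4.63 CPM in H89-treated tumor 2, the lowest of its group. These intervals take the estimates as plain counts, although they were not whole numbers. The group means were 1.95 ± 0.544 and 5.46 ± 1.39 CPM (SD, n = 3 tumors each). The log2 fold change was 1.40 (standard error 0.29), a level 2.64-fold higher in H89-treated tumors, with an edgeR Benjamini-Hochberg adjusted p of 0.0593 (unadjusted p = 0.00138). The exact two-sided permutation p was 0.1, the smallest possible. The call thus lay at the border of the threshold. The adjusted p was 0.0453 in edgeR with no filter on low counts, 0.0494 in its robust fit and 0.000629 in DESeq2, and ranged over all alternatives from 0.000629 to 0.162. With any single tumor left out, the log2 fold change was between 1.21 and 1.63.

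Markers of T and NK cells, the cells in which the IL-18 receptor is best known, followed a similar order over the tumors. Of all genes tested, 13.1% were higher in H89 at an unadjusted edgeR p under 0.05. The 9 T cell markers summed to 35.8, 20.8 and 16.4 CPM in NaCl and to 57.3, 33.1 and 86.2 CPM in H89-treated tumors, and 6 of the 9 had an unadjusted edgeR p under 0.05, all higher in H89. Lck, the most abundant of them, made up 26.2% of the sum, and Cd3g (log2 fold change 1.64), Cd8a (1.76) and Cd5 (1.76) had the smallest p-values. Without H89-treated tumor 3, Cd3g was at 1.08 and Cd8a at 1.03, and without NaCl tumor 1, Cd5 was at 2.67. The 6 NK cell markers summed to 14.4, 12.4 and 5.63 CPM in NaCl and to 30.9, 17.3 and 41.6 CPM in H89-treated tumors. Of these, Klrk1 was the most abundant, Klra8 was at 0 in all 6 tumors, and 4 of the 5 tested had an unadjusted edgeR p under 0.05, among them Klre1 (log2 fold change 1.83), Klrk1 (1.62) and Ncr1 (1.45). The 7 markers of conventional dendritic cells summed to 13.6, 11.5 and 10.8 CPM in NaCl and to 17.8, 20.6 and 21.6 CPM in H89-treated tumors, led by Zbtb46, with 56.2% of the sum, and 4 of the 5 tested had an unadjusted edgeR p under 0.05, among them Xcr1 (log2 fold change 2.07), Zbtb46 (0.38) and Itgae. Itgae, also carried by T cells, was the only gene of the 12 marker lists with an edgeR Benjamini-Hochberg adjusted p under 0.05. Its log2 fold change was 1.18 (edgeR adjusted p = 0.0443, higher in 3 of 3 tumors), and 1.59% of all genes tested had such an adjusted p. The part of these cells in the Il18r1 values was not tested, and in whole tumors fewer cells of a type cannot be told apart from less RNA in each cell.

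Il18rap, the second chain of the same receptor, behaved otherwise. It was measured at 116, 112 and 114 CPM in NaCl and at 109, 133 and 142 CPM in H89-treated tumors. The NaCl tumors were nearly alike (SD 1.88 CPM, n = 3), H89-treated tumor 1 was the lowest of all and H89-treated tumors 2 and 3 the highest. The log2 fold change was 0.09 (standard error 0.09, exact permutation p = 0.4), between 0.03 without H89-treated tumor 3 and 0.16 without H89-treated tumor 1. Within each tumor, the ratio of Il18rap to Il18r1 CPM, with no correction for length, was 47.1, 56.6 and 82.7 in NaCl tumors 1 to 3, and it was 18.1, 34.2 and 22 in H89-treated tumors 1 to 3. The groups did not overlap in this ratio, which was lower in every H89-treated tumor. On the log2 scale, with 0.5 CPM added to both genes, the mean ratio was 5.58 ± 0.32 for NaCl against 4.45 ± 0.44 for H89 (SD, n = 3 tumors), a difference of -1.13 (exact permutation p = 0.1, Benjamini-Hochberg adjusted p = 0.5 over 5 ratios). This ratio largely restates the difference in Il18r1, since Il18rap was nearly even.

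Il1rl1, known as ST2, the receptor of interleukin-33 and a gene with a membrane-bound and a secreted form, was measured at 282, 232 and 235 CPM in NaCl and at 127, 199 and 335 CPM in H89-treated tumors. H89-treated tumors 1 and 2 were below all NaCl tumors and H89-treated tumor 3 was above them. The SD over 3 tumors was 28.1 CPM for NaCl against 105 CPM for H89, and the log2 fold change of -0.27 (standard error 0.28) was -0.67 without H89-treated tumor 3 (edgeR, Benjamini-Hochberg adjusted p = 0.143) and -0.01 without H89-treated tumor 1. The table holds 1 value per gene, so the membrane-bound and secreted forms were not separated. Il1r1, the signaling receptor of interleukin-1, was measured at 75.3, 68.2 and 81.6 CPM in NaCl and at 67.7, 94.8 and 79.6 CPM in H89-treated tumors. H89-treated tumor 2 was the highest and H89-treated tumor 1 the lowest, the groups overlapped, and the log2 fold change was 0.03 (standard error 0.13), with a sign that depended on single tumors, from -0.10 without H89-treated tumor 2 to 0.12 without H89-treated tumor 1. In CPM divided by the total, H89-treated tumor 1 had the lowest level of 6 of the 10 genes (Il1a, Il1b, Il1rn, Il1r1, Il1rl1, Il18rap). H89-treated tumor 3 had the highest level of 6 (Il1b, Il18, Il18bp, Il1rl1, Il18r1, Il18rap). The share of all genes with such extremes was not determined. Close values can change order under TMM, as for Il1r1 in H89-treated tumor 1 and NaCl tumor 2 (67.7 and 68.2 CPM, TMM factors 0.982 and 0.991).

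**Figure D3:**
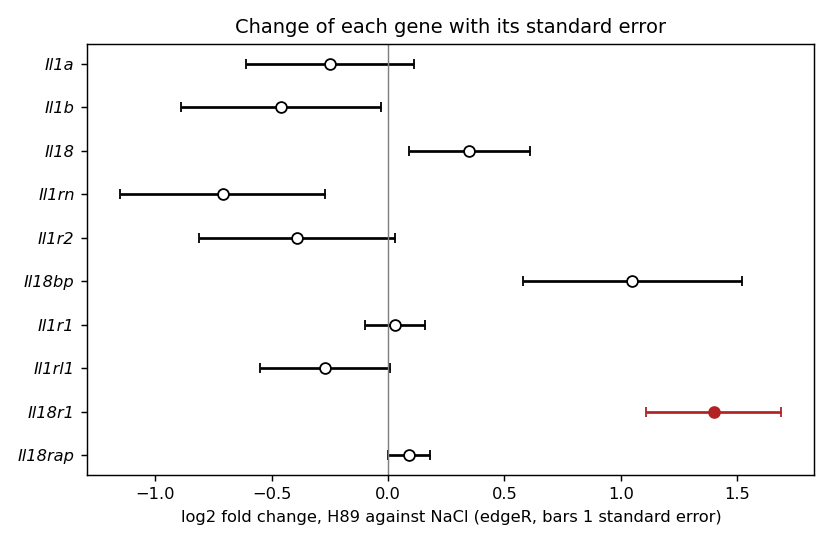
log2 fold change of H89 against NaCl (horizontal axis) for each of the 10 genes (vertical axis), from edgeR, with bars of 1 standard error. The filled red point, Il18r1 at 1.40, has an unadjusted p under 0.05, and the open points do not.

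All 4 receptor chains and the decoy Il1r2 lie on the plus strand of chromosome 1 (GRCm38, GENCODE M21) in a cluster of 6 genes over 478 kb, with Il1rl2 as the remaining member. Il1rl1 (chr1:40429570-40465415) and Il18r1 (chr1:40465552-40500854) are direct neighbours with 136 bases between them, and Il18rap (chr1:40515362-40551705) begins 14507 bases after Il18r1. In spite of this proximity, the neighbours were far apart in level per length, at 43.6 to 115 CPM per kb for Il1rl1, 0.547 to 2.57 CPM per kb for Il18r1 and 22.3 to 29.1 CPM per kb for Il18rap. In log2 fold change, Il18r1 at 1.40 (standard error 0.29) stood apart from both neighbours. Il1rl1 at -0.27 (standard error 0.28) and Il18rap at 0.09 (standard error 0.09) were not clearly apart from each other. The differences between these genes were not tested. The estimated counts of Il18r1, Il18rap, Il1rl1 and Il1rn were not within 0.01 of a whole number in any tumor, as occurs where kallisto divides reads between genes. How many reads of Il18r1 were shared, and with which gene, is not given in the sources used here. Il1rl2, a receptor for interleukin-36, was at 5.43 to 10.4 CPM with a log2 fold change of -0.06 (standard error 0.24).

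**Figure D4:**
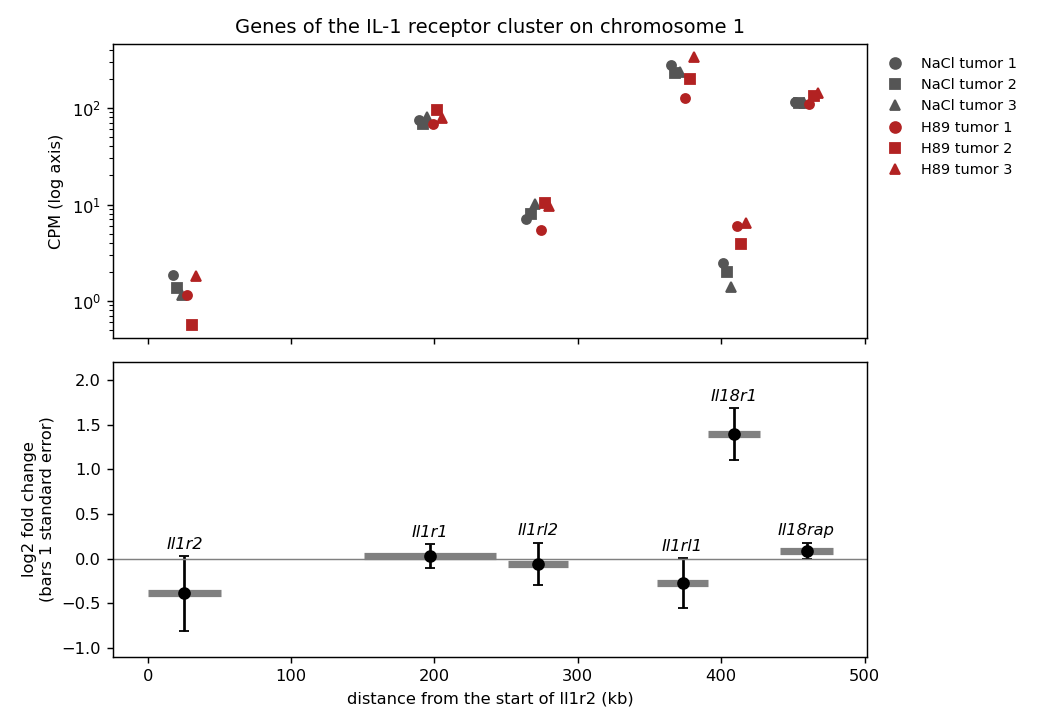
CPM of the 6 clustered receptor genes in each tumor (top, log axis) and their log2 fold change from edgeR with bars of 1 standard error (bottom), at their distance in kb from the start of Il1r2, with grey bars for the length of each gene. Il18r1 stands below its neighbours Il1rl1 and Il18rap in the top panel and farthest from 0 in the bottom panel.

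The stretch between Il1rl1 and Il18r1 is shown because it separates an abundant gene from a scarce one that differed between groups. It is intergenic, on the plus strand of chr1:40465419-40465551 (GRCm38.p6, RefSeq, in which Il1rl1 ends slightly later than in GENCODE), and ends just before the first start site of Il18r1. The second stretch lies upstream of the last start site of Il18r1, outside the annotated first exons, on the plus strand of chr1:40465811-40465969 (GRCm38.p6). Capitals mark a match to the letters TTCNNNGAA, the core of the gamma-activated sequence, an element of interferon-gamma response genes.
Il18r1 intergenic: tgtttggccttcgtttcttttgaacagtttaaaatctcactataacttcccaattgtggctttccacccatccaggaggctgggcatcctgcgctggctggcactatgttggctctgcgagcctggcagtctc
Il18r1 between first exons: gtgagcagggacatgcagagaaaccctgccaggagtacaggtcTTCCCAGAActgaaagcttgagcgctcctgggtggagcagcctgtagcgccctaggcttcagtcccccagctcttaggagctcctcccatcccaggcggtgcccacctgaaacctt
RefSeq promoter windows of 300 bases were found for all 10 genes, 16 in number, and were searched on both strands. TTCNNNGAA occurred in 2 of the 16 windows, of Il18r1 and Il1r2, and in 8.3% of all 32851 promoter windows. The Il18r1 window at its last start site held it 2 times, at 219 bases before that site, within the first exon of another Il18r1 transcript, and at 152 bases before it, in capitals above. GAAANNGAA, the core of the interferon-stimulated response element, occurred in 0 of the 16 windows against 8.56% of all windows. TGACGTCA, the cAMP response element, occurred in 0 of the 16 against 1.79%, and the NF-kappa B consensus in 1, of Il1r1 (as GGAATGCCCC), against 4.51%. These matches describe the letters of the windows and not bound sites.

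Inside each tumor, 4 further ratios were taken, each on the log2 scale with 0.5 CPM added to both genes. They set an inhibitor against its ligand, a decoy against a receptor, or 1 ligand against another. Il1rn to Il1b was 0.99, -0.46 and -0.24 in NaCl and 0.23, 0.14 and -0.22 in H89-treated tumors. NaCl tumor 1 was the highest and NaCl tumor 2 the lowest, the H89 values lay between them, and the mean difference was -0.05 (exact permutation p = 1). Il18bp to Il18 was 3.35, 2.62 and 1.29 in NaCl and 3.53, 2.75 and 3.51 in H89-treated tumors, a mean difference of 0.85 (exact permutation p = 0.2). The ratio was lowest in NaCl tumor 3, and the groups overlapped because NaCl tumor 1 exceeded H89-treated tumor 2. Il1r2 to Il1r1 differed between the groups by -0.37 (exact permutation p = 0.6) and Il1a to Il1b by 0.36 (exact permutation p = 0.4), both with overlapping groups. These differences depended on single tumors, that of Il1rn to Il1b turning to 0.40 without NaCl tumor 1, that of Il1r2 to Il1r1 to 0.04 without H89-treated tumor 2, that of Il18bp to Il18 to 0.28 without NaCl tumor 3, and that of Il1a to Il1b to 0.096 without H89-treated tumor 2 and 0.681 without H89-treated tumor 3. The Benjamini-Hochberg adjusted permutation p over the 5 ratios was 0.5 or more for each.

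In the pattern over the 6 tumors, measured as the root mean square difference of log2(CPM + 0.5) centred on each gene's mean, the genes most like Il18r1 were Gm12216 (0.09), H2-Q10 (0.13) and Klrb1f (0.13), against a median of 0.69 over 13117 genes. H2-Q10, a class I MHC gene with close paralogs whose reads may be shared, was at 41.7, 37.5 and 25.6 CPM in NaCl and at 76.3, 62.2 and 106 CPM in H89-treated tumors. Klrb1f, a lectin-like receptor of NK cells, was at most 2.26 CPM. The genes most like Il1b were Gm13394 (0.06), Srxn1 (0.21) and Fan1 (0.24), against a median of 0.66. Gm13394 is annotated as a processed pseudogene, whose reads may belong to another copy, and was measured at 425, 413 and 585 CPM in NaCl and at 186, 247 and 661 CPM in H89-treated tumors. Like Il1b, it was lowest in H89-treated tumor 1 and highest in H89-treated tumor 3, which restates its selection for likeness over these tumors. For Srxn1, an enzyme of the oxidative stress response, the log2 fold change was -0.80 (standard error 0.35), and for Fan1, a DNA repair nuclease, it was -0.39 (standard error 0.53). Neither had an unadjusted edgeR p under 0.05, and without H89-treated tumor 3 they were -1.32 and -1.38.

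The rest of the IL-1 family was mostly absent or even between the groups. Of the 11 other ligands and receptors in the table, 4 (Il1f5, Il1f6, Il1f8, Il1f10) were at 0 in all 6 tumors and 5 passed the filter, with log2 fold changes between -0.13 and 0.10 and none with an unadjusted edgeR p under 0.05. Sigirr, a receptor that dampens IL-1 signaling, was the most abundant of them in CPM. Among 21 genes of the MyD88, IRAK and TRAF6 pathway, the median log2 fold change was 0.03, against 0.00 for all genes tested. Peli1 (0.43), Chuk (0.33) and Ikbkb (0.23) were higher and Rela (-0.33) was lower at an unadjusted edgeR p under 0.05. These 4 of 21 compared with 25.0% of all genes, and none had an adjusted p under 0.05. Nfkb2, the highest in mean CPM, ranged from 413 to 460 CPM among NaCl tumors and from 392 to 437 CPM among H89-treated tumors.

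**Figure D5:**
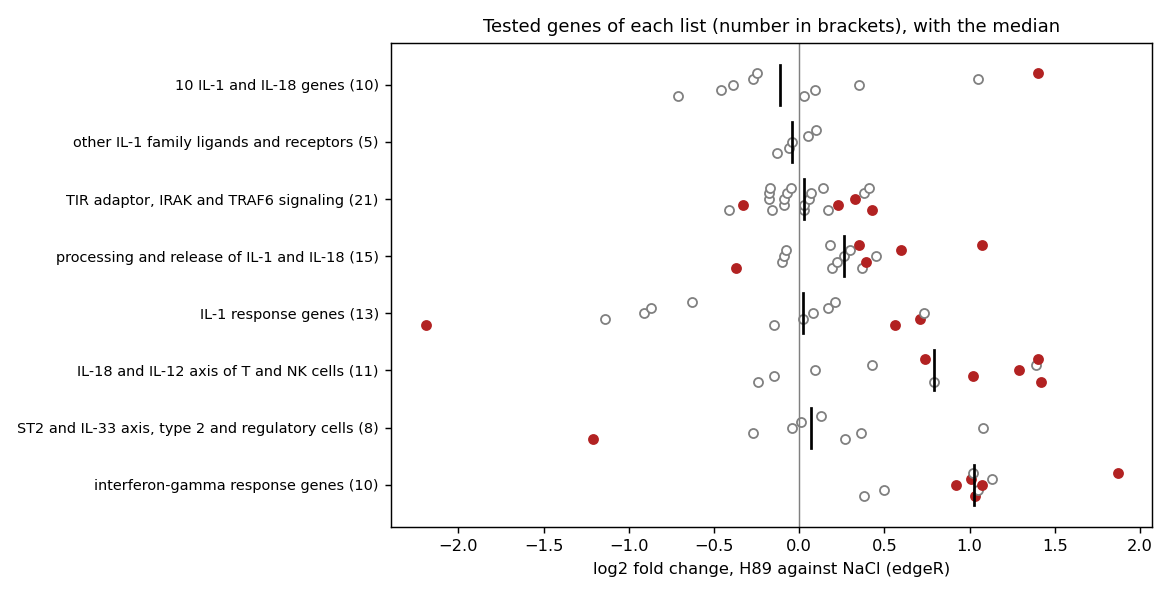
log2 fold change of H89 against NaCl from edgeR (horizontal axis) for the tested genes of each list (vertical axis), with filled red points for an unadjusted p under 0.05 and a black line at each median. All interferon-gamma response genes (median 1.02) and 9 of 11 genes of the IL-18 and IL-12 axis (median 0.79) lie to the right of 0, against 5 of the 10 IL-1 and IL-18 genes (median -0.11). Il18r1, Il18rap, Il18bp and Il1rl1 also belong to 1 of the lower lists.

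Of 15 tested genes that process or release interleukin-1 and interleukin-18, 4 were higher and 1 was lower at an unadjusted edgeR p under 0.05, against 25.0% of all genes in either direction, with a median log2 fold change of 0.26 and none with an adjusted p under 0.05. Casp1, the protease that cleaves both precursors, was at 41.5, 43.4 and 26.3 CPM in NaCl and at 59, 47.8 and 69.9 CPM in H89-treated tumors, with every H89-treated tumor above every NaCl tumor (log2 fold change 0.60, standard error 0.21, and 0.40 without NaCl tumor 3). Mefv (1.07) and Aim2 (0.39), which encode inflammasome sensors, were the other 2 with the smallest p-values upward, and Ninj1 (-0.37), which ruptures the membrane of dying cells, was the one lower. Of 13 tested IL-1 response genes the median was 0.02, with Ccl2 (0.56) and Nfkbiz (0.71) higher and Cxcl3 (-2.19) lower at an unadjusted edgeR p under 0.05, against 25.0% of all genes, and none had an adjusted p under 0.05. Cxcl3, a neutrophil chemokine, was at 2.61, 0.702 and 2.73 CPM in NaCl and at 0.245, 0.407 and 0.743 CPM in H89-treated tumors. Only H89-treated tumor 3 reached the level of NaCl tumor 2, the lowest control.

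Around Il18r1, 5 of the 11 tested genes of the IL-18 and IL-12 axis, itself included, had an unadjusted edgeR p under 0.05, all higher in H89, against 13.1% of all genes, and their median log2 fold change was 0.79. The smallest p after that of Il18r1 belonged to Stat4 (log2 fold change 1.02, standard error 0.35) and Tbx21 (1.42, standard error 0.55), the latter encoding the transcription factor T-bet. Around Il1rl1, 1 of 8 tested genes of the ST2 axis had such a p, against 25.0% of all genes in either direction and 11.9% lower in H89. It was Areg, the growth factor amphiregulin, at 8.84, 11.1 and 15.7 CPM in NaCl and at 4.97, 3.94 and 7.31 CPM in H89-treated tumors, lower in every H89-treated tumor (log2 fold change -1.21, standard error 0.27, edgeR Benjamini-Hochberg adjusted p = 0.0659). Of the 8 tested genes of the ST2 axis, 5 were above 0 and 3 below 0 in log2 fold change, with a median of 0.07. None of the genes of either list had an adjusted p under 0.05.

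Markers of other cells were read in the same tumors, since interleukin-1 genes are expressed in many of them. Their part in the results above was not tested. The 8 macrophage markers, led by C1qa, summed to 1170, 2009 and 1763 CPM in NaCl and to 1688, 1680 and 2061 CPM in H89-treated tumors, with only Fcgr1 (log2 fold change 0.57) at an unadjusted edgeR p under 0.05. The 10 neutrophil markers summed to 32.3 to 54.9 CPM over the 6 tumors, led by Mmp9 (44.7% of the sum), with Csf3r (0.90) higher and Mmp8 (-1.29) lower at an unadjusted edgeR p under 0.05 and the defining marker Ly6g at 0 in all 6. S100a9, chosen after its values were seen, was at 1.62, 1.26 and 4.12 CPM in NaCl and at 0.42, 0.219 and 3.98 CPM in H89-treated tumors. S100a9, S100a8, Mmp8 and Retnlg were lowest in H89-treated tumors 1 and 2, as was Il1b. Csf3r, Cxcr2, Mmp9, Camp and Ngp, of the same list, were not. Csf3r was at 15 and 15.4 CPM in H89-treated tumors 1 and 2, against 7.37 to 10.3 CPM in NaCl. The neutrophil sum in them was 34.8 and 45.9 CPM, against 44.7, 32.3 and 37.3 CPM in NaCl tumors 1 to 3. The 6 basophil and eosinophil markers never exceeded 0.998 CPM together, with Mcpt8 the most abundant. The 6 fibroblast markers, led by Col1a2, ranged in sum from 2429 to 2589 CPM among NaCl tumors and from 2954 to 3502 CPM among H89-treated tumors, with 3 of 6 (Col1a2, Col3a1, Dcn) higher at an unadjusted edgeR p under 0.05, against 13.1% of all genes. The 6 endothelial markers, led by Cdh5, summed to 79.5 to 156 CPM with overlapping groups. Of 9 keratinocyte markers, Krt1, Krt15 and Ivl were at 0 in all tumors and Krt10 made up 81.7% of the sum. This sum was 2.92, 2.29 and 3.77 CPM in NaCl tumors 1 to 3 against 4.1, 4.82 and 3.88 CPM in H89-treated tumors 1 to 3. The 5 skeletal muscle markers, led by Acta1, summed to 18.1 CPM in H89-treated tumor 1 and to at most 2.24 CPM in the other tumors, and the log2 fold change of Acta1 (3.97, standard error 1.61) rested on that tumor. The 6 epithelial markers summed to 12.7 to 26.1 CPM, of which Krt18 made up 74.4%, with Krt18 (-1.04) lower and Krt7 (1.43) higher in H89 at an unadjusted edgeR p under 0.05, against 25.0% of all genes. Of the 5 tested, 4 were above 0 in log2 fold change, with a median of 1.03 over the 5. Epcam, chosen after its values were seen, reached 1.16 CPM in H89-treated tumor 1 and at most 0.097 CPM in the other 5 tumors.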

How the data were processed

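The authors deposited 1 table of estimated counts per gene for 6 tumors, without scaling to library size or length. Its name says TPM, but its columns sum to between 27067349 and 31958793 and 58.6% to 61.4% of values above 0 are within 0.01 of a whole number. The submitters' processing notes name kallisto, DESeq2 and GRCm38, and versions and the strand of counting are not given in the sources used here. Each tumor's group came from its label. Counts were rounded for edgeR 4.0.16 (R 4.3.3, TMM, quasi-likelihood test, Benjamini-Hochberg adjustment) over 13118 genes averaging 0.5 CPM or more, treatment as the only term. CPM printed here are divided by the total only. Single ratios used an exact permutation test over the 10 splits of 6 tumors. Replicates are separate tumors. No tumor pair was alike within counting noise. The members and lists were chosen with earlier results of these data known. Genes named are the 10, and from each list those of highest mean CPM, at 0 in all tumors, or among the smallest unadjusted p under 0.05 (3 per direction, or 3 per marker list), the 3 most like Il18r1 and Il1b, and Il1rl2 and overlapping genes by position, except where said otherwise. Alternatives were DESeq2 1.42.0, limma 3.58.1 with log2(CPM + 0.1, 0.5 or 1), quantile normalization or voom, median-ratio normalization, other filters, a robust fit, a replicate block, and 1 tumor left out at a time. Trac and Flg were not analysed here.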

Additional observations from a re-analysis of the deposited data

How the results depend on the processing

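The 10 log2 fold changes kept their sign under every alternative except with single tumors left out, where Il1a ranged from -0.47 to 0.046 and Il1r1 from -0.10 to 0.12. Quantile normalization moved Il18 from 0.35 to 0.09 and Il1a from -0.25 to -0.47. The adjusted p of Il18r1 fell under 0.05 with no filter (log2 fold change 1.39), DESeq2 (1.39) and the robust fit (1.40). Il1a, Il18, Il1r2 and Il18r1 gave no value at a mean of at least 5 CPM. Genes with an adjusted p under 0.05 numbered 208, but 1406 with DESeq2, 80 with quantile normalization and 0 to 12 with single tumors left out, where fewer tumors were tested. Members with an unadjusted p under 0.05 numbered 1, but 2 with no filter, with limma on log2(CPM + 0.5) or log2(CPM + 1) and with voom, 0 at a mean of at least 5 CPM, where Il18r1 was not tested, and 1 to 4 with single tumors left out. With single tumors left out, the Il1rn to Il1b difference ranged from -0.324 to 0.401 and that of Il1r2 to Il1r1 from -0.642 to 0.043. Nfkb2 turned to 0.023 with quantile normalization, C1qa ranged from -0.083 to 0.29, Mmp9 from -0.43 to 0.21 and Tpsb2 from -0.93 to 0.26 with single tumors left out, and the cause was not tested. With the replicate number as a block (replicate block) 0 genes had an adjusted p under 0.05, and Il18r1 stayed at 1.40 (adjusted p = 0.0755). Same-numbered tumors deviated with correlations of 0.16, 0.06 and -0.03, and differently numbered ones with -0.37 to 0.35. This gave no sign that the numbers pair the tumors. With 3 tumors per group, centred on their group mean, it cannot exclude a pairing. Depth limits Il1a, Il18, Il1r2 and Il18r1, which rest on 18 to 200 counts per tumor.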
